A study of Schizosaccharomyces pombe with 18 samples.

Results

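The mug genes (meiotically upregulated genes) of the fission yeast Schizosaccharomyces pombe were named because their transcripts rise when diploid cells go through meiosis and form spores. The members here are the S. pombe probe sets of the array whose annotated gene symbol starts with mug followed by a number. There were 115 such probe sets, for 115 genes, among the 2937 S. pombe probe sets that carry a gene name. Of these genes, 24 now have another symbol in the reference annotation, which is given in parentheses at first mention, as in mug190 (tcb2). The rule used names and no measured value.

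Fission yeast cells normally grow as haploids. When nutrients, nitrogen above all, run out, cells of opposite mating type can mate, and the zygote enters meiosis under the control of the transcription factor Ste11 and the RNA-binding protein Mei2. During growth many meiotic transcripts are removed by the Mmi1 system before they build up. The mug set was collected by expression and not by function, and its proteins act in membranes, in RNA and chromatin, in metabolism and in protein turnover as well as in meiosis itself.

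RNA was measured on 18 Affymetrix Yeast Genome 2.0 arrays, in 6 groups of 3 biological replicates. The strain was SP-Q01 throughout, a haploid of a single mating type (h-, leu1-32), grown in EMM2 minimal medium at 30 degrees C. rpl32-1 cells carried a plasmid for overexpression of RPL3201 and rpl32-2 cells one for RPL3202, which encode the paralogous ribosomal proteins Rpl32-1 and Rpl32-2. WT cells carried the empty plasmid, called pESP3 in the labels. Each strain was harvested in early stationary phase, at an OD600 of 10, and in log phase, at an OD600 of 0.5. A culture of one mating type has no partner to mate with, so no meiosis was induced in any group. The question for these genes was how their transcripts differed between growth phases and between strains.

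Some arrays stood apart before any comparison. The deposited values fell into 5 sets of arrays with like distributions, which cut across the groups, and all values below were quantile normalized over the S. pombe probe sets (log2 scale). The rpl32-2 probe set read 13.46, 8.80 and 7.72 on the early stationary arrays labelled rpl32-2 and 13.79, 10.88 and 8.4 on the log arrays so labelled, against 13.50 to 13.78 on the 6 WT arrays. On 4 of the 6 arrays the signal therefore went against the label, and on the other 2 it was near that of WT. The rpl32-1 probe set read 14.25, 13.55 and 11.68 on the early stationary arrays labelled rpl32-1, against 13.48 to 14.29 on the WT early stationary arrays. Arrays 1 and 2 so labelled were thus within the WT range. Array 3 went against its label, and its rpl32-2 probe set read 8.96. On the log arrays labelled rpl32-1 the rpl32-1 probe set read 14.18, 14.11 and 14.37, against 13.54, 13.58 and 14.37 on the WT log arrays. None of them was above all WT log arrays. The 2 paralogs are nearly identical in sequence, so their probe sets may share signal. Growth phase was followed by 12 marker genes, which were chosen with earlier results of these data known and are given as a description. On early stationary arrays 1 and 2 labelled rpl32-2, all 5 markers of log phase were above all WT early stationary arrays, among them adg1, a gene of dividing cells, at 11.94 and 11.42, against 5.82 to 7.08 in WT. Of the 7 markers of early stationary phase, fbp1, ght3, gld1 and eno102 were below all WT early stationary arrays on both. hsp9, at 14.25 and 14.37 against 14.37 in WT, gpd1, at 12.97 and 13.32 against 12.56 to 13.03, and ctt1, at 12.64 and 12.87 against 12.57 to 12.93, read at about the WT early stationary level. On rpl32-1 log array 2, 4 of these 7 (fbp1, gld1, eno102 and hsp9) were above all WT log arrays, ght3 and gpd1 were within their range and ctt1 was below it. On rpl32-1 log array 3, 5 of the 7 were above all WT log arrays. Array 1 of that group went the other way, with 0 of the 7 above all WT log arrays and 5 (ght3, gld1, hsp9, gpd1 and ctt1) below them. eno102, an enolase gene, read 10.51 on array 2, against 6.55 to 7.33 in WT log phase.

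Transcripts of the mug genes were often weak in these cells. Background was taken as the 95th percentile of the S. cerevisiae probe sets on the same array. Of the 115 mug genes, 39 (33.9%) were above it on all 18 arrays, while 73.2% of all S. pombe probe sets were. For 4 genes no array was above background. These were mug28, which encodes an RNA-binding protein needed for spore formation, mug55 (fzr3), an activator of the anaphase-promoting complex, mug112 and mug137. For mug27 (also called slk1), a protein kinase of spore formation, 2 of 18 arrays were above background. Signal was much weaker on 2 arrays than on the rest: 68 mug genes on WT early stationary array 3 and 69 on rpl32-1 log array 3 were at or below background, against 4 to 32 on each of the other 16 arrays.

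One member, mug191, was also measured in the study by quantitative PCR. Its primers are the only oligonucleotides of a mug gene in the sources used here, and they are shown in lower case, 5′ to 3′, because mug191 is among the genes that moved most between phases.
mug191 forward: ggctagaggtgctttggacacc
mug191 reverse: cgggactcaacttgtaaagacc

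In WT cells, 25 mug genes rose and 9 fell in early stationary phase against log phase, with 81 not called. The call asked for a limma adjusted p under 0.05 together with a 2-fold change or more. The 25 are 21.7% of the mug genes, where 9.74% of all 2937 probe sets were called higher. The 9 are 7.83%, where 9.09% of all were called lower. Among the 39 mug genes above background on all arrays, 15 (38.5%) were called higher and 2 (5.13%) lower, against 9.21% and 7.16% of the 2151 probe sets with signal on all arrays. The median change of the mug genes was 0.35 on the log2 scale and that of all probe sets -0.07. This median rested on WT early stationary array 3, one of the weak arrays, and on the scaling: it was 0.10 without WT early stationary array 3, and -0.31 beside -0.23 for all probe sets when all probe sets of the array, both yeasts, were quantile normalized together. The rises reached further than the falls.

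**Figure D1:**
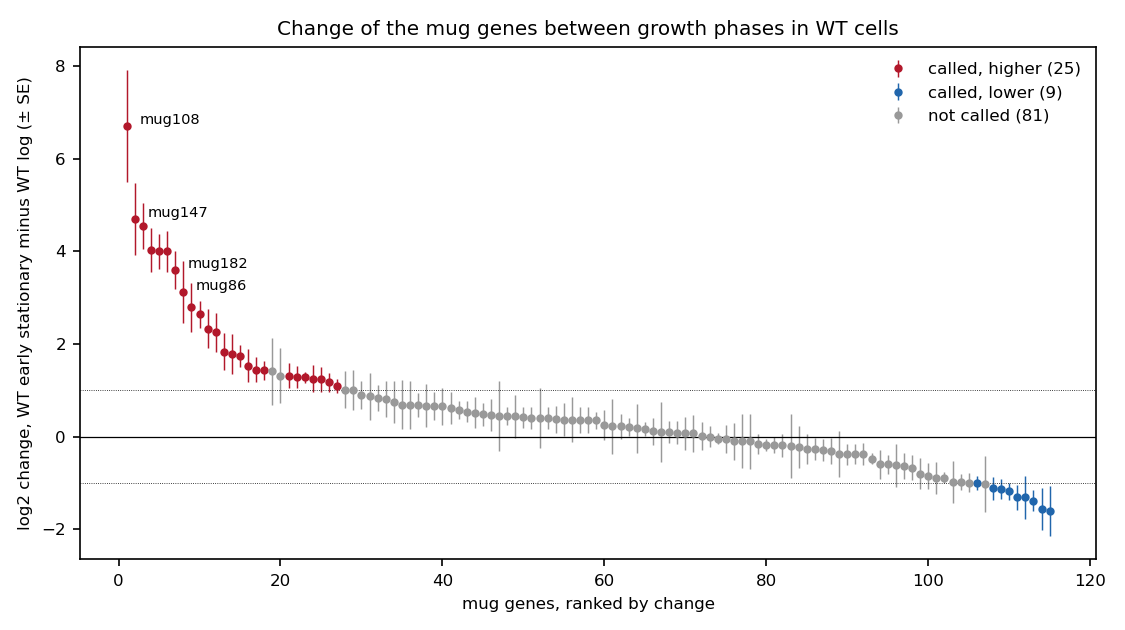
Log2 change of each of the 115 mug genes between WT early stationary phase and WT log phase, in rank order, with the standard error from limma. The 25 genes called higher reach 6.70 (mug108), while the 9 called lower end at -1.60 (mug125); dotted lines mark a 2-fold change.

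The largest rise was that of mug108, a gene of no known role. It read 12.64, 12.03 and 13.66 in WT early stationary phase, against 5.81, 5.95 and 6.47 in WT log phase. The groups did not overlap, and the change was 6.70 ± 1.21 (log2, SE; limma adjusted p = 5.12e-04), a fold of 104. In array sets 1 and 2, where both phases can be compared on the deposited values, the change was 6.64 and 5.52.

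mug14, which encodes a protein with an adducin domain, read 13.92, 13.73 and 13.88 in WT early stationary phase, against 8.57, 9.36 and 9.96 in log phase. Its change was 4.55 ± 0.50 (limma adjusted p = 1.76e-05). mug190 (tcb2), a tricalbin that tethers the endoplasmic reticulum to the plasma membrane, read 11.30, 10.86 and 12.81 in early stationary phase, against 7.29, 7.75 and 7.84 in log phase. All early stationary arrays of both genes lay above all log arrays, and the change of mug190 was 4.03 ± 0.47 (limma adjusted p = 2.29e-05). mug191 read 12.39, 12.60 and 12.80 in early stationary phase, against 8.20, 8.73 and 8.85 in log phase. Its arrays were close within each phase, and the rise was 16-fold (log2 4.0 ± 0.45, limma adjusted p = 1.93e-05). mug143 had the smallest adjusted p of the mug genes in this comparison (5.96e-06, limma). It read 12.44, 12.39 and 12.45 in early stationary phase, against 7.95, 8.68 and 8.65 in log phase, a change of 4.0 ± 0.38. mug147 read 11.45, 11.33 and 12.96 in early stationary phase, against 6.5, 7.64 and 7.5 in log phase, and changed by 4.70 ± 0.78 (limma adjusted p = 2.77e-04).

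Among genes of metabolism and transport, mug182, a predicted epimerase that repairs damaged NADH, read 12.30, 11.69 and 12.41 in WT early stationary phase, against 8.49, 8.47 and 8.64 in log phase. It rose 12.1-fold (log2 3.60 ± 0.41, limma adjusted p = 2.09e-05). mug86, a predicted acetate transporter, read 11.46, 11.74 and 10.27 in early stationary phase, against 8.19, 7.84 and 8.07 in log phase. The groups of both genes stood clear of each other, and mug86 rose 8.71-fold (log2 3.12 ± 0.67, limma adjusted p = 0.00191). mug158 (egt1), an enzyme that makes the antioxidant ergothioneine, read 10.48, 11.62 and 10.53 in early stationary phase, against 8.24, 8.86 and 8.77 in log phase, a rise of 4.76-fold (log2 2.25 ± 0.43, limma adjusted p = 8.15e-04). mug168 had a tight spread, at 13.18, 13.08 and 13.43 in early stationary phase, against 10.48, 10.42 and 10.42 in log phase. Its change was 2.79 ± 0.52 (limma adjusted p = 6.97e-04). mug35 and mug121 rose by 2.64 ± 0.29 and 2.33 ± 0.42. mug2 read 9.17, 8.77 and 8.57 in early stationary phase, against 7.63, 7.19 and 7.33 in log phase, a change of 1.45 ± 0.28 (limma adjusted p = 9.61e-04). The study picked mug191, mug2, mug86, mug168 and mug182 for its own gene set on these same arrays, so their directions are not independent evidence.

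Several smaller rises were of genes with known roles outside meiosis. mug185 (epr1), a receptor for autophagy of the endoplasmic reticulum, read 9.88, 9.97 and 9.92 in WT early stationary phase, against 8.05, 8.14 and 8.10 in log phase (log2 change 1.83 ± 0.40, limma adjusted p = 0.00227). mug179 (atg1802), a phosphoinositide-binding protein of the Atg18 family, changed by 1.74 ± 0.24 and mug66 (atg101), a subunit of the Atg1 kinase complex, by 1.78 ± 0.43. mug186 (snx41), a sorting nexin, changed by 1.10 ± 0.15. mug63 (oxr1), an oxidation resistance protein, changed by 1.17 ± 0.20 and mug82 (pth4), a predicted peptidyl-tRNA hydrolase, by 1.25 ± 0.29. The others called higher were mug51, mug65, mug99 (mmc1), mug114, mug122 and mug126, at 1.24 to 1.53. For mug114 no log array and 1 early stationary array was above background (log2 change as fitted 1.24, limma adjusted p = 0.00195). A bound against background came to 1.43-fold. Such a bound sets the mean of the early stationary arrays against, for each log array, the higher of its own value and the lowest value among probe sets above background. Here that early stationary mean itself included arrays at or below background, among them weak array 3 with the highest value, 5.78. No least fold is therefore known for mug114.

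**Figure D2:**
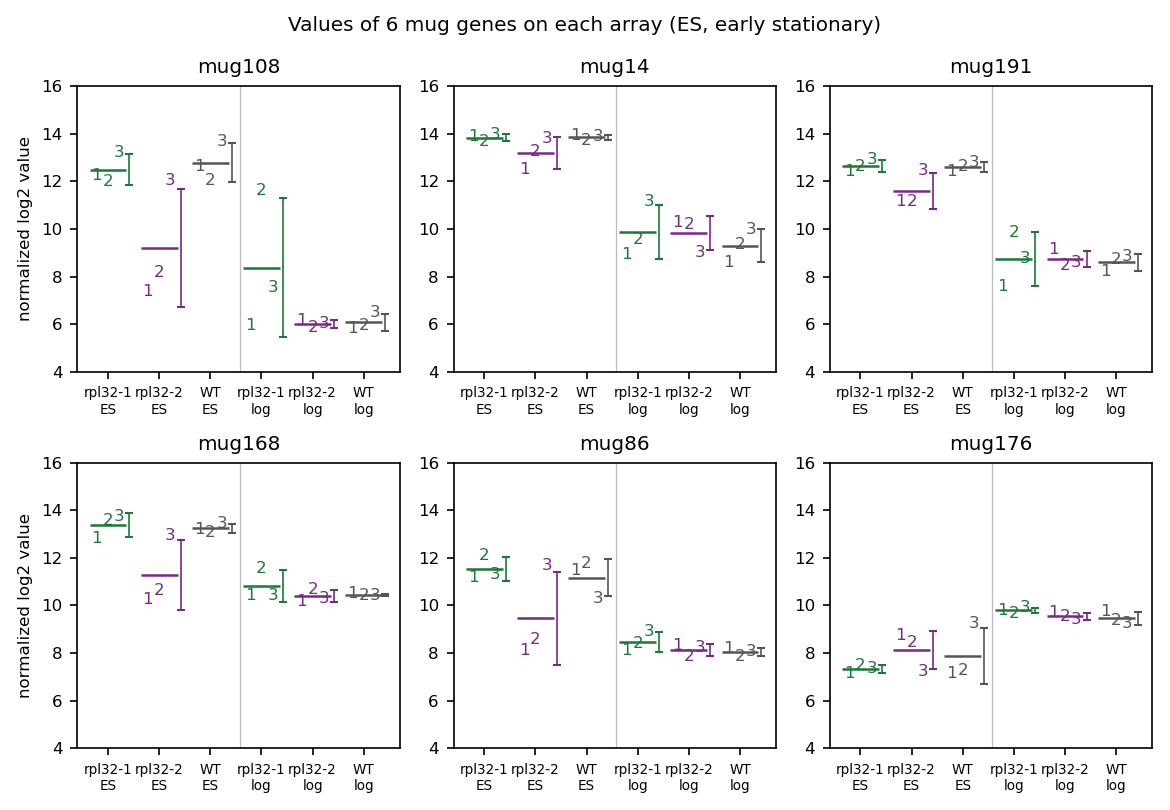
Normalized log2 values of mug108, mug14, mug191, mug168, mug86 and mug176 on each array, with digits for the array number, bars for the group mean and whiskers for the SD (n = 3). In early stationary phase the WT and rpl32-1 values overlap in each panel, though WT array 3 stands apart for mug86 (10.27) and mug176 (9.24). For mug108, rpl32-2 early stationary arrays 1 and 2 read 7.39 and 8.15, against 12.03 on array 3.

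The falls were smaller. mug176, a protein with BRCT domains, read 7.16, 7.27 and 9.24 in WT early stationary phase, against 9.75, 9.37 and 9.24 in log phase, a change of -1.56 ± 0.45 (limma adjusted p = 0.0112). Its early stationary array 3, one of the weak arrays, touched the log values. mug183 (rtt106), a histone chaperone, read 7.75, 7.84 and 7.63 in early stationary phase, against 8.99, 8.96 and 8.79 in log phase, and changed by -1.18 ± 0.19 (limma adjusted p = 2.73e-04). mug110 read 7.88, 7.64 and 7.55 in early stationary phase, against 9.15, 9.12 and 8.94 in log phase. The groups did not overlap, and mug110 fell 2.61-fold (log2 change -1.38 ± 0.23, limma adjusted p = 2.95e-04). The other 6 were mug125 (-1.60), mug94 (-1.31), mug84 (-1.31), mug154 (nur1, a protein of the nuclear rim, -1.13), mug73 (-1.11) and mug64 (-1.0). Without WT early stationary array 3, mug125, mug154, mug64 and mug94 were no longer called, mug109, mug146 and mug37 were called instead, and 5 of the 9 kept their call. Of the 25 rises 24 kept theirs without that array, with mug114 lost and mug135 gained.

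The array sets, which hold part of the same WT arrays on which the calls were made, are given as a description. All 25 genes called higher were higher in early stationary phase in set 1 (1 array per phase) and in set 2 (1 early stationary and 2 log arrays), 23 and 24 of them by 2-fold. The 9 called lower were lower in both sets, 7 and 5 of them by 2-fold. WT early stationary array 3 has no WT log array in its set.

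By the roles assigned to them, the genes were counted beside all probe sets, and no test was run on these short lists. Of all probe sets, 9.74% were called higher and 9.09% lower, with a median change of -0.07. Genes of membrane traffic and transport had 4 of 11 called higher (mug122, mug186, mug190 and mug86) and 1 lower (mug64). Their median change was 0.16. The genes of metabolism had 3 of 8 called higher (mug14, mug158 and mug182) and none lower, with a median of 0.95. Of 5 genes of protein turnover and folding, 1 was called higher (mug185). mug105 (also called zup1), a deubiquitinating enzyme, changed by 0.90 ± 0.31 (limma adjusted p = 0.0304), short of 2-fold. The 7 genes of RNA and chromatin had 2 called lower (mug176 and mug183) and none higher. None of the 3 measured genes of meiotic chromosomes and the spindle pole was called, nor any of the 3 of the spore and forespore membrane. mug5 was -0.60 ± 0.31 and mug1 (jnm1), a dynactin subunit, -0.48 ± 0.12 (limma adjusted p = 0.124 and 0.00605). mug10, of the spore list, was -0.28 ± 0.24, and mug27 was 0.66 ± 0.31 with no WT array above background.

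Other meiotic genes on the same arrays gave a background for these counts. Of 20 meu probe sets, another group named for meiotic expression, 1 was called higher (meu10) and 3 lower in WT early stationary phase. Of 34 for recombination and meiotic chromosomes, 2 were called higher and 1 lower, and of 24 for spore formation, 3 higher and none lower. Of 32 probe sets for mating and meiotic entry, 12 were called higher and none lower, with a median change of 1.14. Mei2, the RNA-binding switch of meiosis, changed by 2.84 ± 0.41 at the transcript level (mei2, limma adjusted p = 1.02e-04), while ste11 was 1.14 ± 0.53 (limma adjusted p = 0.0914). Of 16 core stress genes 12 were called higher and 1 lower, with a median change of 2.17. None of 121 ribosomal protein probe sets was called, and their median was -0.17.

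In rpl32-1 cells, 24 mug genes were called higher in early stationary phase against log phase, where 11.7% of all probe sets were, and 9 lower, where 11.1% of all were. These are 20.9% and 7.83% of the mug genes. Without early stationary array 3 so labelled, 24 were called higher and 11 lower. The WT and rpl32-1 comparisons share no arrays. Of the genes called higher, 22 were shared, which is 91.7% of the rpl32-1 list and 88.0% of the WT list. Of the genes called lower, 5 were shared, or 55.6% of each list. mug190 led in rpl32-1 cells, at 11.04, 11.57 and 12.09 in early stationary phase, against 5.88, 7.22 and 7.65 in log phase (log2 change 4.65 ± 0.47, limma adjusted p = 4.43e-06). mug143 changed by 4.41 ± 0.38, mug14 by 3.96 ± 0.50 and mug191 by 3.92 ± 0.45.

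mug108 was less even in rpl32-1 cells. It read 12.24, 11.99 and 13.21 in early stationary phase, against 5.94, 11.62 and 7.55 in log phase, a change of 4.11 ± 1.21 (limma adjusted p = 0.0109). Log array 2 was thus near the early stationary level. On the same array mug147 read 9.50, against 5.39 and 7.42 on log arrays 1 and 3, and mug168 read 11.57, against 10.42 and 10.40. eno102 was high on this array too, as given above, and the part of that in these values was not tested.

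**Figure D3:**
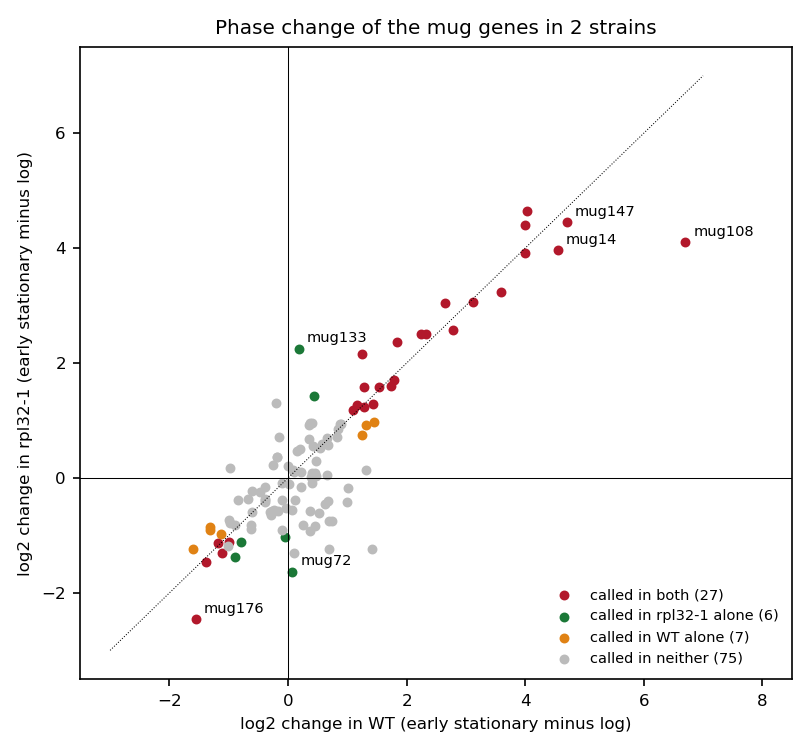
Log2 change of the 115 mug genes between early stationary and log phase in rpl32-1 cells (vertical) and in WT cells (horizontal), from separate arrays; the dotted line marks equal change. The 27 genes called in both strains lie along the line, with mug108 below it at 4.11 against 6.70.

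Some calls were made in rpl32-1 cells and not in WT. mug133 read 7.18, 7.33 and 7.09 in rpl32-1 early stationary phase, against 5.99, 5.24 and 3.62 in log phase, a change of 2.25 ± 0.53 (limma adjusted p = 0.00282). In WT cells it was 0.18 ± 0.53, with 6.90, 7.31 and 5.12 in early stationary phase, against 6.33, 6.18 and 6.27 in log phase. The weak arrays, WT early stationary array 3 and rpl32-1 log array 3, gave the lowest mug133 value of their groups. mug72 was called lower at -1.63 ± 0.39, with 4.91, 5.12 and 5.17 in early stationary phase, against 6.49, 6.19 and 7.40 in log phase. The others were mug135 (1.42), mug109 (-1.37), mug100 (-1.12) and mug24 (-1.02), which encodes an RNA-binding protein. Without both weak arrays, an alternative chosen after seeing the data, mug135 and mug24 lost the call in rpl32-1 cells, and mug135 and mug109 were called in WT. mug133 kept its call in rpl32-1 cells and was still not called in WT. The difference of the phase changes between rpl32-1 and WT was tested for every probe set. No mug gene was called (0.0% of all probe sets), with 15 mug genes (13.0%) at an unadjusted p under 0.05, as were 6.64% of all probe sets (limma). mug72 differed by -1.70 ± 0.55 (limma adjusted p = 0.701).

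In the arrays labelled rpl32-2, 14 mug genes were called higher in early stationary phase against log phase, where 5.72% of all probe sets were, and 3 lower, where 6.09% of all were. These are 12.2% and 2.61% of the mug genes. Of the 14, 13 were also called in WT, which is 92.9% of this list and 52.0% of the WT list. The 13 called higher in all 3 strains were mug14, mug35, mug63, mug99, mug126, mug143, mug147, mug158, mug182, mug185, mug186, mug190 and mug191. For mug126 no rpl32-1 log array was above background, so its rise in rpl32-1 cells (log2 change as fitted 1.59) is only a bound of at least 1.09-fold. mug110 and mug176 were called lower in all 3. No mug gene was called higher in one strain and lower in another.

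The early stationary arrays of this strain were uneven for these genes. On arrays so labelled, mug14 read 12.48, 13.27 and 13.81 in early stationary phase, against 10.25, 10.20 and 9.0 in log phase (log2 change 3.37 ± 0.50, limma adjusted p = 2.12e-04). mug191 read 11.17, 11.13 and 12.46, against 9.13, 8.48 and 8.60 (log2 change 2.85 ± 0.45, limma adjusted p = 3.05e-04). Both phases of mug99 stayed tight, at 10.09, 10.36 and 10.28 in early stationary phase, against 9.13, 9.17 and 9.08 in log phase, and its adjusted p was the smallest of the mug genes in this comparison (3.11e-05, limma). mug108 was not called (log2 change 3.18 ± 1.21, limma adjusted p = 0.0538). It read 7.39, 8.15 and 12.03 in early stationary phase, against 6.15, 5.84 and 6.04 in log phase. mug86 and mug168, also not called, overlapped between phases, at 8.12, 8.55 and 11.69 for mug86 in early stationary phase, against 8.31, 7.85 and 8.25 in log phase. mug8 was the only mug gene called higher here and in no other strain (1.37 ± 0.47, limma adjusted p = 0.0354), although its arrays overlapped. mug146 was the only one called lower here alone (-1.82 ± 0.61, limma adjusted p = 0.0309). Its mean also fell in the other strains, by -1.02 in WT cells and from 6.1 to 4.92 in rpl32-1 cells. Without WT early stationary array 3 it was called in WT too, as given above. The calls depended on single arrays: without rpl32-2 log array 2 or without rpl32-2 early stationary array 3, 11 mug genes were called, and 23 without rpl32-2 early stationary array 1.

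**Figure D4:**
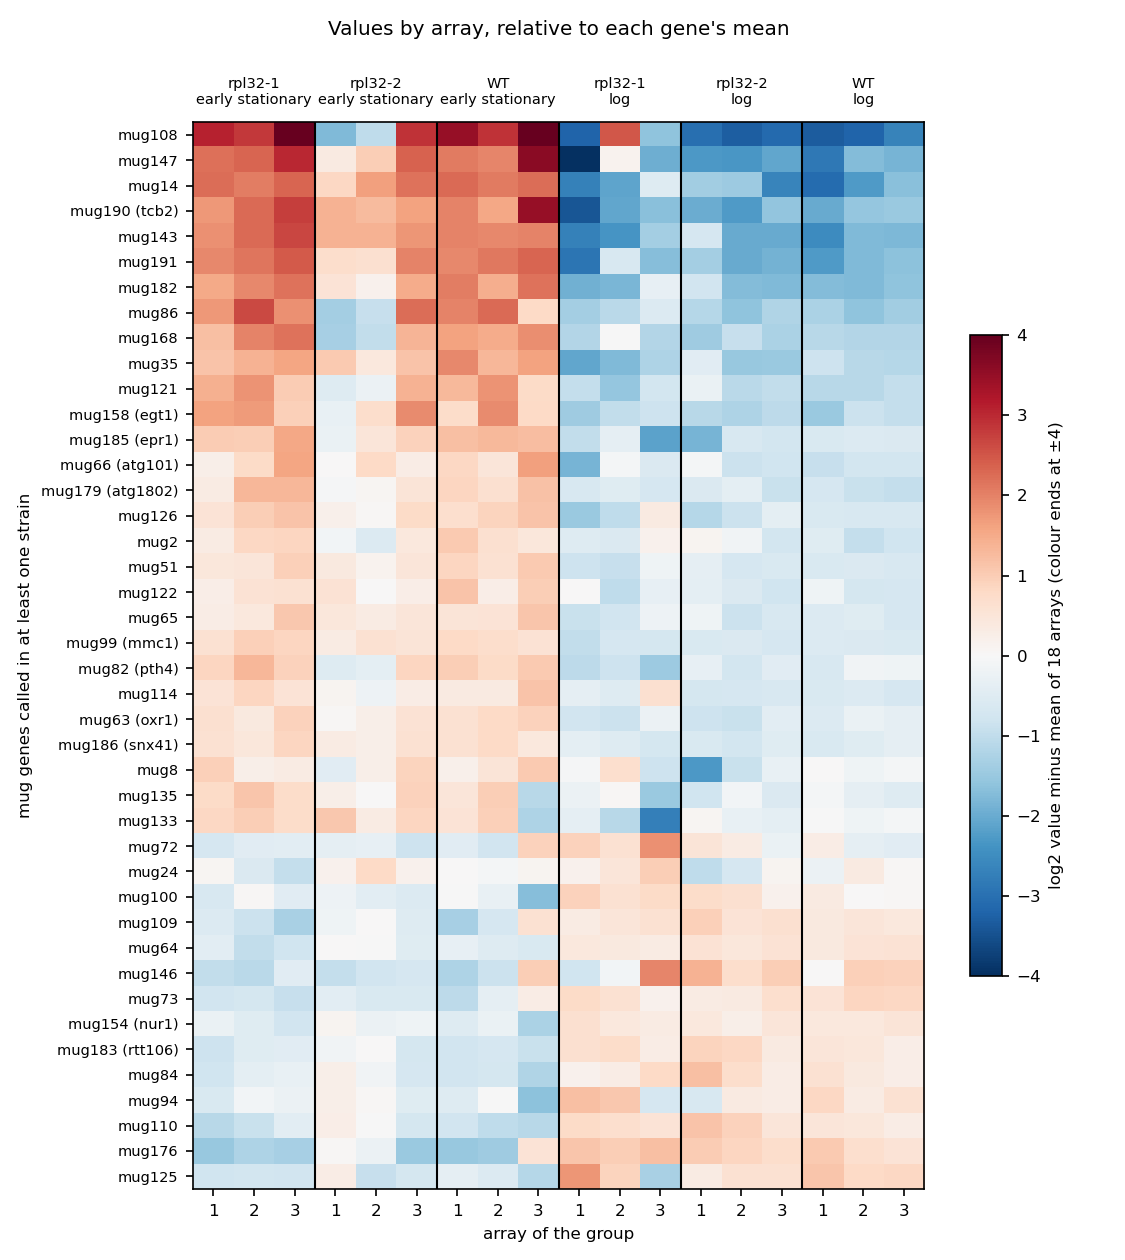
Values of the 42 mug genes called in at least one strain (28 higher, 14 lower), by array, as log2 value minus the mean of the gene over 18 arrays; genes are ordered by their change in WT. Arrays 1 and 2 of rpl32-2 early stationary phase are paler than the other early stationary arrays in the upper rows, and rpl32-1 log array 2 is high for mug108.

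In log phase no mug gene differed between strains by the call rule. For rpl32-1 against WT, 0.0% of all probe sets were called, 12 mug genes (10.4%) had an unadjusted p under 0.05, as did 6.09% of all probe sets, and the smallest adjusted p of a mug gene was 0.802 (limma). For rpl32-2 against WT, 0.0% were called, with 6 mug genes (5.22%) at an unadjusted p under 0.05, where 2.76% of all were, and a smallest adjusted p of 0.961. mug30, a predicted E3 ubiquitin ligase, read 7.38, 7.41 and 7.69 in rpl32-1 cells, against 7.67, 8.06 and 8.01 in WT cells. mug191 read 7.57, 9.84 and 8.77 in rpl32-1 cells and 9.13, 8.48 and 8.60 on the arrays labelled rpl32-2, against 8.20, 8.73 and 8.85 in WT cells. The rpl32-1 log arrays were uneven, with 26 mug genes 2-fold or more above the WT log mean on array 3, one of the weak arrays, and 4 and 1 on arrays 2 and 1. The share on array 3 was 22.6%, where 5.41% of all probe sets were as high. On arrays 3, 2 and 1, 9, 1 and 8 mug genes were 2-fold or more below the WT log mean, or 7.83%, 0.87% and 6.96%, where 5.35%, 0.34% and 1.02% of all were. With array weights, 4 mug genes (3.48%) were called higher (mug103, mug108, mug112 and mug72) and 2 (1.74%) lower in rpl32-1 cells, where 0.647% and 0.443% of all probe sets were. That fit leaned on WT log arrays 2 and 3, both of set 2, with weights of 9.172 and 8.346. WT log array 1 had a weight of 0.803 and rpl32-1 log array 3 one of 0.2. Of these, mug112 was above background on no array. For rpl32-2 against WT, 1 was called higher and 3 lower with array weights, where 0.34% and 0.579% of all were.

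In early stationary phase, rpl32-1 and WT cells gave like values for the genes that had risen. No probe set was called between them (0.0%), 3 mug genes (2.61%) had an unadjusted p under 0.05, where 4.02% of all had, and the changes of the mug genes ran from -1.31 to 0.98 with a median of -0.09. mug108 read 12.24, 11.99 and 13.21 in rpl32-1 cells, against 12.64, 12.03 and 13.66 in WT cells, and mug14 read 13.86, 13.68 and 13.96, against 13.92, 13.73 and 13.88. The lowest change was that of mug112, which was above background on no array.

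For rpl32-2 against WT in early stationary phase, no mug gene was called either (0.0% of all probe sets), although 22 mug genes (19.1%) had an unadjusted p under 0.05, as did 21.0% of all probe sets (limma). The arrays labelled rpl32-2 were split. On arrays 1 and 2, 18 and 15 mug genes were 2-fold or more below the WT mean, or 15.7% and 13.0% of the mug genes, where 4.73% and 3.88% of all probe sets were. On array 3, 3 mug genes (2.61%) were, where 0.987% of all were. Above the WT mean by 2-fold or more were 2, 0 and 0 mug genes on arrays 1, 2 and 3, where 5.48%, 4.83% and 1.36% of all probe sets were.

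mug168 had the smallest adjusted p of the mug genes in this comparison (0.102, limma), where the smallest of all probe sets was 0.0703. It read 10.26, 10.61 and 12.95 on the arrays labelled rpl32-2, against 13.18, 13.08 and 13.43 in WT cells, a change of -1.96 ± 0.52. mug108 read 7.39, 8.15 and 12.03, against 12.64, 12.03 and 13.66 in WT cells (-3.59 ± 1.21, limma adjusted p = 0.130). For mug168, arrays 1 and 2 lay near the WT log values (10.48, 10.42 and 10.42). For mug108 they lay above the WT log values (5.81, 5.95 and 6.47) and below all WT early stationary values. Array 3 lay near the WT early stationary values for both genes. mug86 read 8.12, 8.55 and 11.69, against 11.46, 11.74 and 10.27 in WT cells. mug121 read 9.66, 9.95 and 11.56, against 11.49, 11.97 and 10.93 in WT cells, and mug2 read 8.01, 7.58 and 8.54, against 9.17, 8.77 and 8.57. mug110, one of the genes that fell between phases, went the other way, at 8.91, 8.63 and 7.96 on the arrays labelled rpl32-2, against 7.88, 7.64 and 7.55 in WT cells (0.81 ± 0.23, limma adjusted p = 0.104).

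Without array 3 labelled rpl32-2, 9 mug genes were called lower and 1 higher than in WT. Of all probe sets, 2.79% were then called lower and 3.75% higher. Array 3 carried the lowest rpl32-2 signal of all arrays, at 7.72, but array 2, which was kept, was also low, at 8.80. On array 3, 2 of the 5 log-phase markers were above all WT early stationary arrays, against all 5 on arrays 1 and 2. The 9 were mug108 (-5.01 ± 1.11), mug86 (-2.82 ± 0.39), mug168 (-2.80 ± 0.33), mug121, mug150, mug182, mug191, mug82 and mug2 (-1.04 ± 0.29), and mug110 was higher (1.08 ± 0.21). The adjusted p ran from 1.23e-04 (mug168) to 0.0383 (mug191), from limma. With array weights 8 were called lower and 1 higher, where 2.04% and 3.23% of all probe sets were. Arrays 1, 2 and 3 labelled rpl32-2 then had weights of 0.966, 2.276 and 0.173. The weighted fit was thus close to leaving out array 3 and is not a separate check. With each other array left out no mug gene was called. Inside set 1 of arrays, array 1 labelled rpl32-2 against WT array 1 gave -4.97 for mug108, -2.93 for mug86 and -2.81 for mug168. Inside set 2, array 3 labelled rpl32-2 against WT array 2 gave 0.03, -0.03 and -0.06. The markers of log phase were high on arrays 1 and 2 and those of early stationary phase were divided, as given above. Whether the cultures of arrays 1 and 2 differed in growth phase from the others was not tested.

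The 24 mug genes that rose in rpl32-1 cells, a comparison that uses none of the arrays of rpl32-2 against WT in early stationary phase, were then set against WT there. Of the 24, 22 were below WT and 2 above (mug133 and mug135) in the arrays labelled rpl32-2. Their median difference was -0.68, where that of all probe sets was -0.01. By array the median difference of the 24 was -0.96, -0.78 and -0.20. In all, 344 probe sets were called higher in rpl32-1 early stationary phase, and their median difference from WT here was not computed. Whether the shift was particular to the mug genes was therefore not tested. Of the 9 genes that fell in rpl32-1 cells, 7 were above WT and 2 below, with a median of 0.28. None of these genes was called with all arrays.

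**Figure D5:**
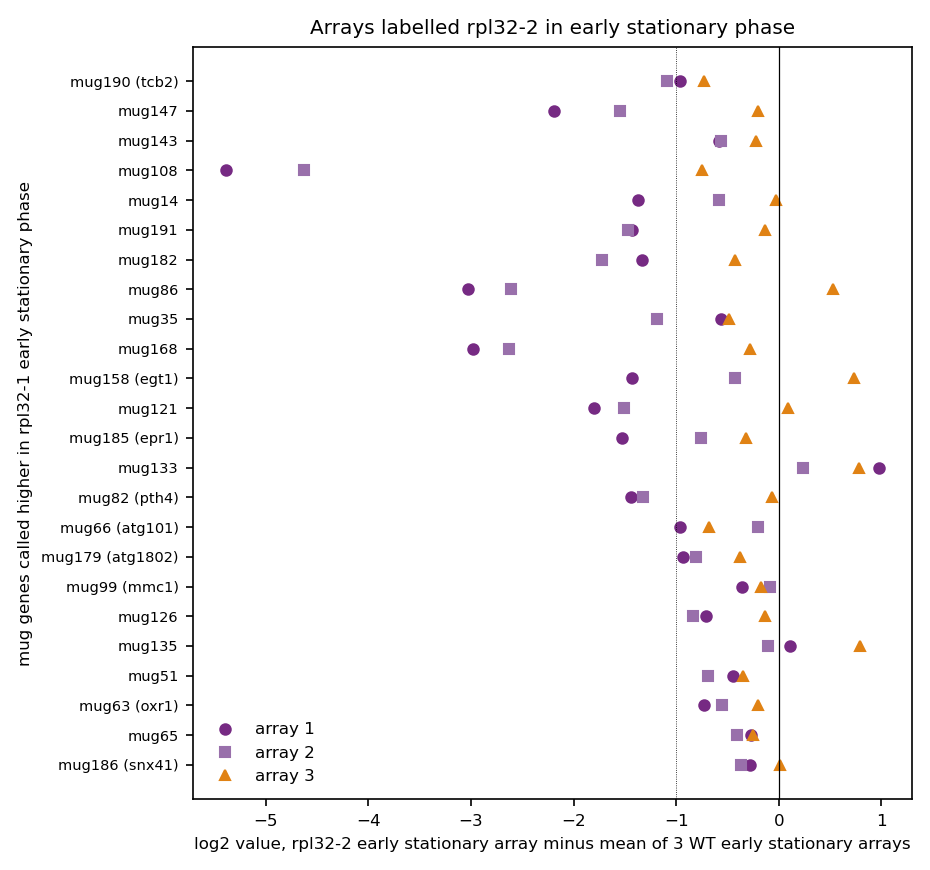
Difference of each early stationary array labelled rpl32-2 from the mean of the 3 WT early stationary arrays (log2), for the 24 mug genes called higher in rpl32-1 early stationary phase. On arrays 1 and 2, 22 and 23 genes lie below WT, 11 and 10 of them by 2-fold or more, and on array 3 18 lie below and none by 2-fold.

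The difference of the phase changes between rpl32-2 and WT was tested directly as well. No mug gene was called (0.0% of all probe sets), 14 (12.2%) had an unadjusted p under 0.05, as did 12.2% of all, and mug2 had the smallest adjusted p of the mug genes (-1.29 ± 0.40, limma adjusted p = 0.376). With early stationary array 3 labelled rpl32-2 left out, 6 mug genes were called lower and none higher, where 2.01% of all probe sets were called lower and 2.55% higher. These were mug86 (-2.92 ± 0.52), mug168 (-2.74 ± 0.44), mug150 (-2.15 ± 0.61), mug121 (-1.93 ± 0.44), mug2 (-1.54 ± 0.39) and mug82 (-1.18 ± 0.29). With array weights and all arrays, 8 mug genes were called lower and 2 higher, where 3.06% and 3.58% of all probe sets were. Array 3 carried little weight in that fit, as given above.

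Over the means of the 6 groups, the mug genes whose pattern was most like that of mug108 were mug114 (Pearson r = 0.995), mug86 (0.974), mug168 (0.974), mug179 (0.962) and mug182 (0.947). These r values rest on 6 points that share their arrays and are given as a description. mug114 was above background on 4 of 18 arrays and on no log array, so its r rests largely on background values. The pattern was high in rpl32-1 and WT early stationary phase, between in rpl32-2 early stationary phase, and low in the log groups, with mug108 means of 12.48 (rpl32-1), 9.19 (rpl32-2) and 12.78 (WT) in early stationary phase, and 8.37 (rpl32-1), 6.01 (rpl32-2) and 6.08 (WT) in log phase. The SD of 2.93 in rpl32-1 log phase and 2.49 in rpl32-2 early stationary phase spans the gap between those 2 groups.

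There are 5 pairs of mug genes that are neighbours among the protein-coding genes of the reference annotation. Of these, mug66 (atg101) and mug105 gave the highest correlation over the 18 arrays (r = 0.75), with changes in WT of 1.78 and 0.90. mug86 rose by 3.12 in WT cells, while its neighbour mug116 gave -0.62 and was above background on 3 of 18 arrays. In no pair were both genes called in WT.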

How the data were processed

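RNA was hybridised to GeneChip Yeast Genome 2.0 arrays, and per the labels and the study's methods the authors deposited log2 values made with Partek by RMA. No source used here says whether all arrays went into a single RMA run. The 18 columns were mapped by sample label. Probe sets were named from the platform annotation and, for newer symbols, the RefSeq table (ASM294v3), which matched every mug gene. The 5 sets of arrays come from single linkage of the sorted values at a distance of 0.2. Values were quantile normalized over 2937 S. pombe probe sets, and 6 group means were fitted in limma 3.58.1 (R 4.3.3; eBayes, 12 residual degrees of freedom, Benjamini-Hochberg over 2937), with 7 comparisons and 2 differences of phase changes. Tables and plots used Python 3.11.15, pandas 2.3.3 and matplotlib 3.10.9. The number of arrays limits the precision. Alternatives changed the scaling, variance model, filter, blocks and arrays. Genes were named by rank within the comparisons, by role, or as the study's picks. The members, lists and growth phase markers were chosen with earlier results of these data known. Genes singled out otherwise (the 4 without signal, neighbours, and calls that changed without an array) were chosen after their values were seen. Promoters and proteins were not analysed here.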

Additional observations from a re-analysis of the deposited data

How the results depend on the processing

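The call of 34 mug genes in WT early stationary against log phase fell to 9 on the values as deposited, that of 33 in rpl32-1 cells to 13 and that of 17 on the arrays labelled rpl32-2 to 11; there the median of all probe sets was -0.65, -0.13 and 0.75. The rpl32-2 count was 8 with the methods' t-test after Benjamini-Hochberg adjustment and 32 with deposited values and array sets as a block, an alternative chosen after seeing the data. With no minimum fold the counts were 57 in rpl32-1 cells and 41 on the arrays labelled rpl32-2. Array weights gave 6 calls for rpl32-1 and 4 for rpl32-2 against WT in log phase, 9 for rpl32-2 in early stationary phase and 10 for the difference of phase changes between rpl32-2 and WT, each 0 with equal weights; the methods' t-test with unadjusted p gave 1 and 1 in log phase, and deposited values with array sets as a block gave 1 for rpl32-2 in log phase. The cause was not tested. Leaving out 1 array gave 31 to 40 in WT, 31 to 43 in rpl32-1 cells and 11 to 23 on those labelled rpl32-2, 0 to 10 for rpl32-2 against WT in early stationary phase and 0 to 6 for the difference between rpl32-2 and WT. For rpl32-2 against WT in early stationary phase, mug82 changed sign as deposited, to 0.20. There the median of all probe sets was 0.65, so mug82 stayed below it.

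Higher calls made up 73.5% of the WT calls and 61.8% (21 higher, 13 lower) with quantile normalization over all probe sets; in rpl32-1 cells 72.7% became 92.3% as deposited (12 and 1), 87.9% with median centring (29 and 4) and 91.2% over all probe sets (31 and 3); on the arrays labelled rpl32-2, where 82.4% were higher, all 11 were as deposited. With the replicate number as a block, 35 mug genes were called in WT, 33 in rpl32-1 cells and 18 on the arrays labelled rpl32-2, and none between strains. Numbers share no stated culture and the deviations of same-numbered arrays correlated from -0.334 to 0.475, so the block was kept as an alternative. Array sets as a block gave 33, 28 and 23. Leaving out both weak arrays, chosen after seeing the data, gave 35 and 44 in WT and rpl32-1 cells. Over single genes, 979 of 1050 values kept their direction and side of the threshold, 65 lost the call (24 of them as deposited), 5 gained it and 1 reversed. Low signal limits 76 of the 115 mug genes, which were at or below background on at least 1 array. Promoter motifs were not run.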
